A study of Mus musculus with 2 samples.

Results

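The 10 genes described here encode products of the secretory end pieces of mouse salivary glands, and all 10 have a row among the 20140 genes of the deposited tables. They were named for that role, and Dcpp1, Dcpp3 and Wfdc12 were selected on their measured levels, far lower after duct ligation, so the differences of these genes between the libraries are given as a description with no test. The tables hold cluster means from 2 droplet single-cell RNA libraries of female C57BL6/J mice aged 14 weeks, taken 14 days after surgery. In the ligated library a metal clip had closed the main duct of each of the glands, and in the mock library the ducts had been exposed without a clip. Each library came from 2 pooled submandibular and sublingual glands and is the only one of its group, so there is no spread between replicates and every difference compares 2 libraries. Cells bearing EpCAM or Ter119 and dead cells were removed from both libraries before loading, so the epithelial cells described below are those that remained after a depletion aimed at epithelium.

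Acinar cells make the primary saliva, a salty fluid loaded with proteins and mucins, which the ducts then modify on its way to the mouth. In the mouse, serous and demilune cells secrete small soluble proteins while mucous cells secrete mucins, and the submandibular and sublingual glands differ in their mix of these cells. Closing the duct is a standard way to make a salivary gland atrophy, and loss of acinar cells and of their secretory products is well known in that model.

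The genes fall into several roles. Dcpp1, Dcpp2 and Dcpp3 (demilune cell and parotid proteins) are tandem copies that encode small lectin-like proteins of serous demilunes. Bpifa2 is the parotid secretory protein, a lipid-binding antibacterial protein of saliva. Mucl2 and Prol1 encode mucin-like and proline-rich secreted proteins, and Pip encodes the prolactin-induced protein, an abundant protein of saliva and other exocrine fluids. Wfdc12 encodes a small secreted protein with a WAP domain, a fold common among protease inhibitors. Smgc encodes submandibular gland protein C, and Aqp5 encodes the water channel of the apical acinar membrane.

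In the build of the submitters' processing notes (mm10, the same assembly as GRCm38), the GENCODE annotation places Dcpp1 at chr17:23880876-23882853, Dcpp2 at chr17:23880880-23900788 and Dcpp3 at chr17:23917458-23919441, all on the plus strand. An exon of the Dcpp2 model overlaps Dcpp1, and the transcripts of Dcpp1 and Dcpp2 were 90.0% identical over their alignment, those of Dcpp1 and Dcpp3 93.4% and those of Dcpp2 and Dcpp3 91.8%. Reads could therefore have been split among the 3 copies or left uncounted, and the value of each copy is uncertain. Their sum does not depend on such a split, but how many reads it misses was not tested. Bpifa2 lies at chr2:154008265-154016079 on the plus strand and Wfdc12 at chr2:164189231-164190608 on the minus strand, where an exon of A730032A03Rik lies on the opposite strand. Prol1 lies at chr5:88317312-88328814 and Pip at chr6:41847535-41852065, both on the plus strand. On chromosome 15, Smgc (chr15:91838265-91861438) and Aqp5 (chr15:99590782-99594829) lie on the plus strand and Mucl2 (chr15:103895855-103899312) on the minus strand. Exons of Smgc overlap those of the mucin gene Muc19 on the same strand, so Smgc is also uncertain.

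The 250 bases before the start that the RefSeq promoter table gives for the 3 Dcpp genes and for Bpifa2 are printed because these 4 genes had the largest differences between the libraries in the cluster led by acinar genes, and they show what the copies share (RefSeq, GRCm38.p6, 5′ to 3′ on the plus strand, TATAA in capitals). The windows are chr17:23880626-23880875 for Dcpp1, chr17:23898472-23898721 for Dcpp2, chr17:23917208-23917457 for Dcpp3 and chr2:154008026-154008275 for Bpifa2. The annotations place these starts differently. The Dcpp2 window lies inside the longer GENCODE model, the Bpifa2 window ends after the GENCODE start, and the RefSeq gene records of Dcpp1 and Dcpp3 begin inside their windows, at 23880669 and 23917419.
Dcpp1: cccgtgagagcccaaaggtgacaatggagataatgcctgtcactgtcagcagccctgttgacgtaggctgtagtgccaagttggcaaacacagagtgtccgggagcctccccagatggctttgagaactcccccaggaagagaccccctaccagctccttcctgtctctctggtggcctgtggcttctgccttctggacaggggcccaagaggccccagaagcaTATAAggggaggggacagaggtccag
Dcpp2: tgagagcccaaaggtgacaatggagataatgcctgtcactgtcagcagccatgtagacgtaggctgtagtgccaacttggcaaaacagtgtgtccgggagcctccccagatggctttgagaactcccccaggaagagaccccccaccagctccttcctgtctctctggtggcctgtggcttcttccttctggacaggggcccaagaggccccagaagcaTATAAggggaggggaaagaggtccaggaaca
Dcpp3: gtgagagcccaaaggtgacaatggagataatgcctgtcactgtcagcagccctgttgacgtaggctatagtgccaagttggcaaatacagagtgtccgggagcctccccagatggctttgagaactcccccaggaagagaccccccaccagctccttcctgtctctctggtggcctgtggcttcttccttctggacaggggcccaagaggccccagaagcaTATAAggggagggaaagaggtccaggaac
Bpifa2: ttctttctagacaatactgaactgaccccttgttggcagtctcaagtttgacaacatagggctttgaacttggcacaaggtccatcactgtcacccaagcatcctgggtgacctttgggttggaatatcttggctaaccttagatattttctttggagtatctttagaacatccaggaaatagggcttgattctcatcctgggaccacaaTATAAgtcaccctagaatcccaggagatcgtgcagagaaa

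The Dcpp1 and Dcpp2 windows were 93.3% identical, Dcpp1 and Dcpp3 94.9%, and Dcpp2 and Dcpp3 96.4%, so each pair was more alike before its start than within its transcripts. The Bpifa2 window was 44.9% to 46.8% identical to the 3 Dcpp windows. The motif TATAA, searched on both strands, lay on the gene's strand at 26, 31 and 29 bases before the start in Dcpp1, Dcpp2 and Dcpp3, and at 40 bases in Bpifa2. All 10 genes matched an entry of the promoter table. Of their windows, 6 held the motif and those of Prol1, Mucl2, Wfdc12 and Aqp5 did not, while 22.8% of 32851 mouse promoters of the same length held it on either strand. A match is a description of the letters only.

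The 12 clusters held 11406 cells of the ligated and 4199 of the mock library, numbers recovered from the means. A value is the mean over a cluster's cells of a gene's UMIs (counted RNA molecules) per 10000 UMIs of the cell. Clusters are called by the markers that led them with both libraries together. They are 2 endothelial-like clusters (0 and 4), natural killer-like (1), T cell-like (2), fibroblast-like (3), macrophage-like (5), mural-like (6), ductal-like (7), Schwann-like (9), erythroid-like (10) and cycling (11) clusters, and cluster 8, which is led by acinar genes. Cluster 11 is mixed. In the ligated library its T cell markers summed to 30.4 and its cycling markers to 24.8. In the mock library its endothelial markers summed to 68.1, neutrophil markers to 36.2 and cycling markers to 30.7. Of 13 acinar markers with a row, which include 9 of the 10 genes, all 13 were above 0 in ligated cluster 8 and 11 in mock cluster 8, where Amy1 and Smgc were at 0.

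Cluster 8 was small and uneven. It held 264 cells of the ligated library, which is 2.31% of that library (95% exact Clopper-Pearson interval 2.05% to 2.61%, counting error only), and 25 cells of the mock library, which is 0.595% (0.386% to 0.878%). The UMI totals that could be recovered for single cells had a median of 1052 for ligated cells and 5006 for mock cells. With 25 cells the mock cluster is under the 50 cells asked of a cluster whose differences are counted, and its values are given for what they are. In the ductal-like cluster 7, with 278 and 201 cells, the medians of the recovered totals were 971 and 979 UMIs. In the whole cluster 8, 69.5% of the 3754 genes at or above 0.5 in either library were at least 2-fold higher in the ligated library and 5.59% at least 2-fold lower, on the log2(value + 0.1) scale used for all differences here.

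The 10 genes together took 47.3% of all UMIs in mock cluster 8 and 3.72% in ligated cluster 8. Summed over cells, this equals the UMIs of 11.8 whole cells of the 25 in the mock and of 9.83 whole cells of the 264 in the ligated library. At least 12 mock cells and at least 10 ligated cells must therefore have carried them. The genes were thus the main content of the mock cluster and a small part of the content of the larger ligated cluster.

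Markers of other cell types moved with this. The 8 fibroblast markers summed to 42.5 in ligated cluster 8, with all 8 detected, and to 0.278 in mock cluster 8, where Pdgfra, Lum, Col1a2, Col3a1, Dpt and Pi16 were at 0. The 10 endothelial markers summed to 50.5 and 3.37, with Cldn5 at 0 in the mock library. The 8 macrophage markers summed to 17.6 and 0.0800, with 7 of the 8 at 0 in the mock library. The ligated value of every gene in cluster 8 is a mean over cells that also carry these transcripts. Their part in the differences was not tested, and fewer acinar cells in the cluster and less RNA of a gene per acinar cell cannot be told apart from these means.

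**Figure D1:**
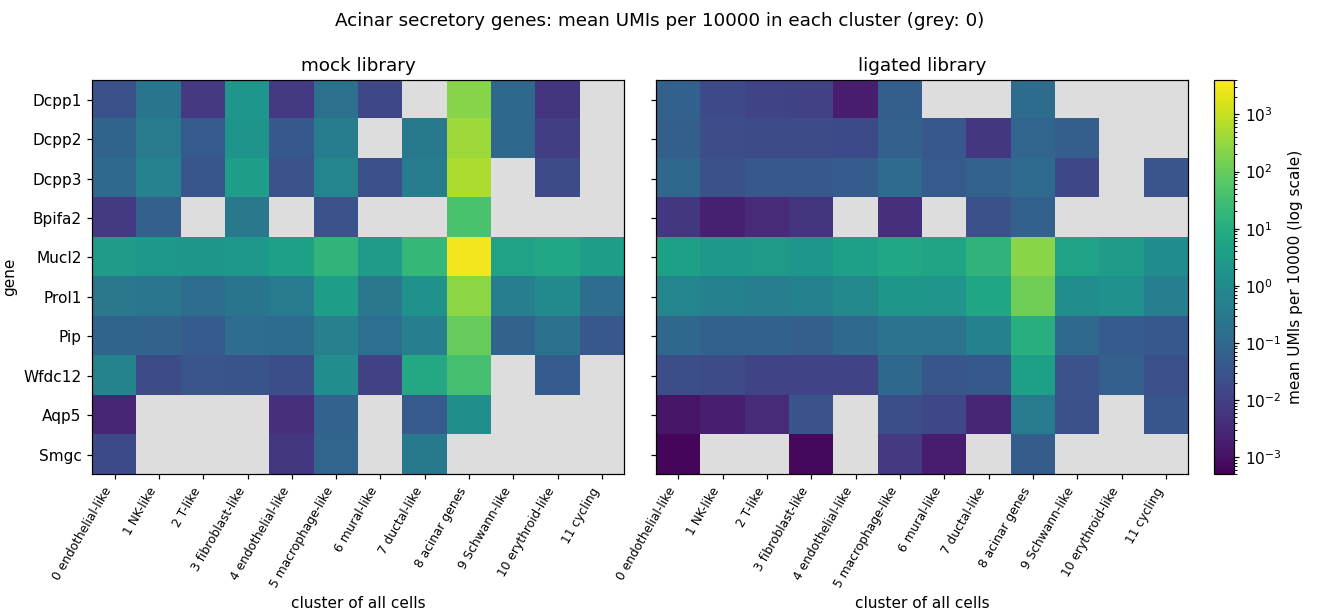
Mean UMIs per 10000 (colour, log scale) of the 10 genes (rows) in the 12 clusters of all cells (columns), mock library on the left and ligated library on the right, 1 library each, grey for 0. The Dcpp and Bpifa2 rows peak in cluster 8 of the mock library, at 42.9 to 579, and stay at or below 0.139 in the ligated library, while Mucl2, Prol1 and Pip have their highest value in cluster 8 in both.

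The Dcpp genes and Bpifa2 had levels close to 0 in ligated cluster 8. Dcpp1 was at 229 in the mock and 0.139 in the ligated library, a difference of -9.91 on the log2 scale. Dcpp2 was at 385 and 0.0896, a difference of -10.99. Dcpp3 was at 579 and 0.132, a difference of -11.28. Bpifa2 was at 42.9 and 0.0706, a difference of -7.98. A single UMI in a cell of the median recovered total would give 0.0360 in ligated cluster 8, and the 4 ligated values lie between 0.0706 and 0.139. The number of UMIs behind them was not recovered, and the sizes of the differences depend on it.

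In the ligated library the highest value of each of these 4 genes was still that of cluster 8, but the next clusters were close for the Dcpp genes. Dcpp3 was at 0.132 in cluster 8, 0.132 in the macrophage-like cluster 5 and 0.106 in the endothelial-like cluster 0. Dcpp2 was at 0.0896 in cluster 8, 0.0666 in cluster 5 and 0.0621 in cluster 0. Dcpp1 was at 0.139, 0.0618 and 0.0680 in the same order. Bpifa2 was at 0.0706 in cluster 8, 0.0253 in cluster 7 and 0.00663 in cluster 0. In the mock library cluster 8 was followed by the fibroblast-like cluster 3 for all 4 genes (3.78 for Dcpp3). For Dcpp2 and Dcpp3 the macrophage-like cluster 5 came next (0.416 and 0.688), ahead of cluster 1 (0.331 and 0.560), and for Dcpp1 and Bpifa2 cluster 1 came next (0.243 and 0.0662), ahead of cluster 5 (0.177 and 0.0298). With 1 library per group, neighbours in these orders cannot be compared with a replicate spread.

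The shares of the 3 copies are given as counted where they were abundant, and carry the uncertainty of each copy's value noted above. The Dcpp sum of mock cluster 3 could come from as few as 1 cell. Of their sum in mock cluster 8, Dcpp1 made 19.2%, Dcpp2 32.3% and Dcpp3 48.5%, and in mock cluster 3 the shares were 27.6%, 23.8% and 48.6%. Bpifa2 stood at 0.0359 of the Dcpp sum in mock cluster 8 and at 0.0373 in mock cluster 3. Cluster 8 held 89.8% of the summed level of Dcpp1 in the mock library, 91.6% of Dcpp2, 90.5% of Dcpp3 and 90.0% of Bpifa2. In the ligated library it held 10.0%, 5.65%, 5.07% and 28.4%, and cluster 0 held 54.8%, 43.8%, 45.3% and 29.8%.

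**Figure D2:**
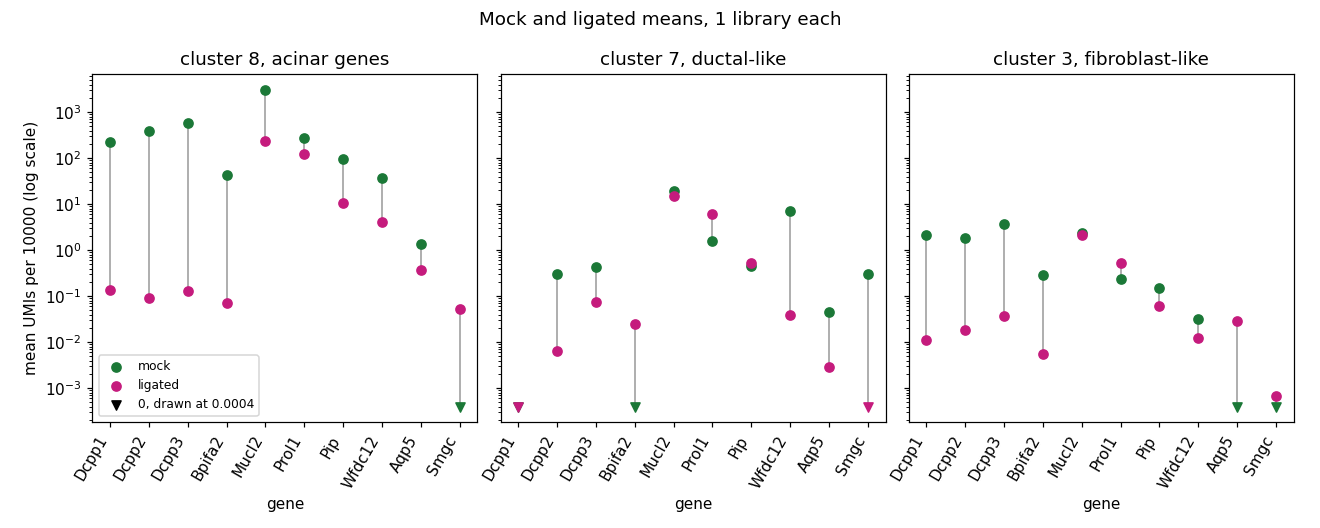
Mock (green) and ligated (pink) mean UMIs per 10000 on a log scale for each of the 10 genes in cluster 8, the ductal-like cluster 7 and the fibroblast-like cluster 3, 1 library each, with triangles for values of 0. In cluster 8 the gap for Dcpp1, Dcpp2, Dcpp3 and Bpifa2 is far longer than that for Prol1 or Mucl2. In cluster 7 the wide gaps are those of Wfdc12 and the low Smgc, Bpifa2 and Dcpp2, and in cluster 3 those of the Dcpp genes, Aqp5 and Bpifa2. Bpifa2 in cluster 7 and Aqp5 in cluster 3 are at 0 in the mock library and above 0 in the ligated library. The length of a gap to 0 depends on where the triangle is drawn.

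Mucl2, Prol1 and Pip were lower in ligated cluster 8 and still clearly present there. Mucl2 was at 3085 in the mock and 232 in the ligated library, a difference of -3.73. Pip was at 96.5 and 10.7, a difference of -3.16. Prol1 was at 276 and 124, a difference of -1.15. These 3 had their highest value in cluster 8 in both libraries, followed in the ligated library by cluster 7 (15.4 for Mucl2, 6.28 for Prol1 and 0.529 for Pip).

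Summed over the cells of cluster 8, and expressed as a percentage of the UMIs of 1 cell, Mucl2 came to 771 in the mock and 614 in the ligated library. Pip came to 24.1 and 28.3, Wfdc12 to 9.40 and 10.7, and Prol1 to 69.0 and 328. The same sums for Dcpp3 were 145 and 0.349. The summed shares of Mucl2, Pip and Wfdc12 were thus of similar size in both libraries, that of Prol1 was higher in the ligated library, and that of Dcpp3 was lower. They add shares of each cell's UMIs and are not amounts of RNA. The recovered totals of cluster 8 had medians of 5006 UMIs in the mock and 1052 in the ligated library. These sums depend on how many cells were loaded and recovered, which differed between the libraries.

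Ratios between 2 genes within 1 cluster and library do not depend on how many other cells share the cluster, provided those cells lack both genes. That condition was not fully met, since Mucl2, Prol1 and Pip were above 0 in every cluster. Outside clusters 7 and 8 ligated Mucl2 ran from 1.10 to 6.52, beside 232 in ligated cluster 8. The part of other cells in these ratios was not tested. In cluster 8 the sum of the 3 Dcpp genes was 0.387 of Mucl2 in the mock and 0.00155 in the ligated library, a 250-fold lower ratio. Bpifa2 was 0.0139 and 0.000304 of Mucl2, a 45.7-fold lower ratio. Pip was 0.0313 and 0.0461 of Mucl2, and Wfdc12 was 0.0122 and 0.0175. Prol1 was 0.0895 and 0.534 of Mucl2, a 5.97-fold higher ratio in the ligated library. Relative to Mucl2, then, the Dcpp genes and Bpifa2 were lower, Prol1 was higher, and Pip and Wfdc12 differed by less than 2-fold.

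The ratio of Prol1 to Mucl2 was higher in the ligated library in 12 of 12 clusters. It ran from 0.172 to 0.534 over the ligated clusters, with a median of 0.299, and from 0.0448 to 0.212 over the mock clusters, with a median of 0.0902. The clusters come from the same library and are not replicates. The ratio of Pip to Mucl2 was higher in the ligated library in 6 of 12 clusters, with medians of 0.0299 and 0.0298. The ratio of the Dcpp sum to Mucl2 was higher in the ligated library in 2 of 12 clusters, and in the mock library it ran from 0 to 3.28.

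**Figure D3:**
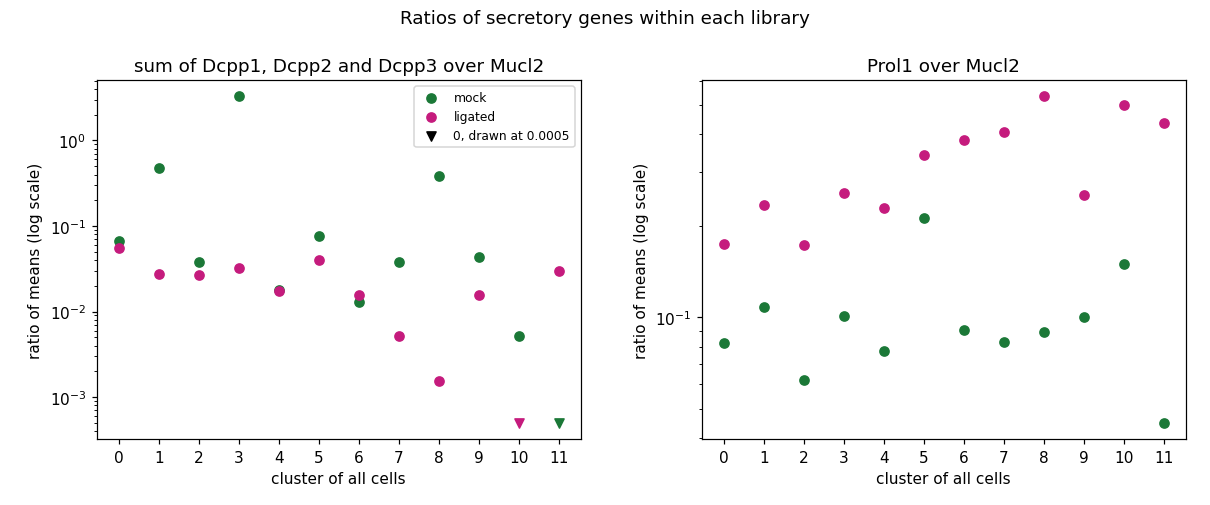
Ratio of mean levels (log scale) in each of the 12 clusters, on the left the Dcpp sum over Mucl2 and on the right Prol1 over Mucl2, mock library in green and ligated library in pink, with triangles for a ratio of 0. Prol1 over Mucl2 is higher in the ligated library in 12 of 12 clusters, and the Dcpp ratio in the mock library is highest in cluster 3 (3.28), cluster 1 (0.481) and cluster 8 (0.387).

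Mucl2, Prol1 and Pip were above 0 in every cluster of both libraries, including cells that are not known to make them. In the endothelial-like cluster 0, Mucl2 was at 3.29 in the mock and 4.31 in the ligated library, and Prol1 was at 0.271 and 0.754. In the T cell-like cluster 2, Mucl2 was at 2.31 and 2.57, and Prol1 was at 0.143 and 0.443. Outside clusters 7 and 8, Mucl2 ran from 2.31 to 16.8 with a median of 3.41 in the mock library, and from 1.10 to 6.52 with a median of 3.51 in the ligated library. Low values of these 3 genes in other clusters are at the level found in cell types not known to express them, and are not read as expression.

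Wfdc12 had its highest level in cluster 8 in both libraries, and much of its sum lay elsewhere in the mock library. In the ductal-like cluster 7 it was at 7.23 in the mock and 0.0394 in the ligated library, a difference of -5.72, while Mucl2 in the same cluster was at 19.5 and 15.4. In cluster 8 it was at 37.6 and 4.07, a difference of -3.18. It was also lower in the ligated library in cluster 0, at 0.613 and 0.0228, and in cluster 5, at 1.22 and 0.105. Of its summed level in the mock library, 36.6% lay in cluster 7, 36.5% in cluster 0 and 23.7% in cluster 8, whereas 79.0% lay in cluster 8 in the ligated library. The low Smgc was likewise outside cluster 8 in the mock library, with 54.2% of its sum in cluster 7 and 38.3% in cluster 0. The ratio of Wfdc12 to Mucl2 in mock cluster 7 was 0.370, against 0.0122 in mock cluster 8.

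The Wfdc12 sum in mock cluster 7 amounted to 14.5% of the UMIs of 1 cell among 201 cells, and that in mock cluster 0 to 14.5% of 1 cell among 2363. Each could therefore come from as few as 1 cell. The same holds for the Dcpp genes in the fibroblast-like cluster 3, which were at 2.15, 1.86 and 3.78 in the mock library and at 0.0113, 0.0188 and 0.0380 in the ligated library. Their mock sum there was 14.6% of the UMIs of 1 cell among 188 cells, and the Dcpp genes took on average 1194 of 10000 UMIs in a cell of mock cluster 8. The number of cells that carried them was not recovered.

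Of the other genes in the ductal-like cluster, Prol1 was at 1.62 in the mock and 6.28 in the ligated library, a difference of 1.89, and Pip was at 0.462 and 0.529. Dcpp2 was at 0.308 and 0.00659 and Dcpp3 at 0.425 and 0.0736, while Dcpp1 was at 0 in both. The ligated Dcpp2 value equals 1 UMI in 1 cell of 5459 UMIs. Klk1, the kallikrein of duct cells, was at 346 and 898 in this cluster, and the 10 ductal markers summed to 375 and 977. Mucl2 per Klk1 in cluster 7 was 0.0565 in the mock and 0.0172 in the ligated library.

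Aqp5 was low outside cluster 8, and Smgc was low in every cluster. Aqp5 was at 1.34 in mock and 0.379 in ligated cluster 8, a difference of -1.59, and at or under 0.0748 in every other cluster of all cells in both libraries. Relative to Mucl2 in cluster 8 it was 0.000434 in the mock and 0.00163 in the ligated library. Smgc was at 0 in mock and 0.0540 in ligated cluster 8. Its highest value among clusters of all cells was 0.300, in mock cluster 7, where it was at 0 in the ligated library. Smgc stayed below 0.5 everywhere and entered no count.

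Across the 9 clusters in which both libraries had 50 cells or more there were 90 pairs of a gene and a cluster, of which 27 reached 0.5 in either library. Of these, 4 were at least 2-fold higher in the ligated library, against 6.89% of all gene and cluster pairs at or above 0.5, and 10 were at least 2-fold lower, against 4.17%. The 4 higher pairs were all Prol1, in clusters 0, 4, 6 and 7, with differences of 1.20, 1.23, 2.49 and 1.89. The 10 lower pairs were Dcpp1, Dcpp2 and Dcpp3 in cluster 3, Dcpp3 in clusters 1 and 5, Wfdc12 in clusters 0, 5 and 7, and Mucl2 in clusters 5 and 10. Since 3 of the genes were picked for low ligated values, nothing is read from the share of lower pairs. With all 12 clusters, 39 of the 120 pairs reached 0.5, and 5 of the 39 were higher and 20 lower, beside 13.5% and 6.49% of all gene and cluster pairs at or above 0.5. Of the 20, 9 lay in cluster 8.

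Prol1 was higher in the ligated library in 8 of the 9 compared clusters, and in cluster 5 it was at 3.56 in the mock and 2.22 in the ligated library. The difference was largest in the mural-like cluster 6, at 0.281 and 2.04. Outside cluster 8 these Prol1 values are not read as expression. In cluster 7 Prol1 was 0.0830 of Mucl2 in the mock and 0.406 in the ligated library. Outside clusters 7 and 8 that ratio ran from 0.0448 to 0.212 and from 0.172 to 0.501. Whether duct cells made Prol1 was not tested. Mucl2 was higher in 3 of the 9 and Pip in 4 of the 9, with differences between -1.35 and 0.77 for Mucl2 and between -0.99 and 0.24 for Pip. Among these 3 genes, Prol1 alone was past 2-fold in the higher direction in the compared clusters of all cells.

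The deposited subset named after Pdgfra, Pdgfrb and Gli1 gave a second view of the stroma. Its 3 clusters that met the same minimum of cells gave 30 pairs, of which 10 reached 0.5. Of these 10, 4 were higher, beside 5.12% of all gene and cluster pairs at or above 0.5, and 4 lower, beside 4.58%. Prol1 was at 0.256 in the mock and 1.41 in the ligated library in subset cluster 0, and at 0.123 and 2.21 in subset cluster 2. Mucl2 was at 2.36 and 6.61 in subset cluster 0 and at 2.23 and 5.23 in subset cluster 2. These low values of Prol1 and Mucl2 are likewise not read as expression. The lower pairs were Dcpp1, Dcpp2, Dcpp3 and Wfdc12 in subset cluster 0, with Wfdc12 at 7.05 and 0.0464. Dcpp1, Dcpp3 and Wfdc12 were picked for low ligated values, so nothing is read from the count of lower pairs. The summed mock values of Dcpp1 and Dcpp2 in subset cluster 0 equalled those of cluster 3 of all cells, at 4.04% and 3.49% of the UMIs of 1 cell, so the same cells gave both values and the subset is no second measurement of them.

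Averaged over all cells of a library, 7 of the 10 genes reached 0.5, and 5 were at least 2-fold lower in the ligated library while 0 were higher. Over all 3823 genes at or above 0.5, 6.12% were lower and 6.38% higher. Dcpp1, Dcpp3 and Wfdc12, among the 5 lower genes, were picked for low ligated values, so nothing is read from the lower count. The library mean of Dcpp1 was 1.52 in the mock and 0.0321 in the ligated library, that of Dcpp2 2.50 and 0.0367, and that of Dcpp3 3.81 and 0.0604. Mucl2 had library means of 22.6 and 8.99 and Wfdc12 of 0.946 and 0.119. Prol1 stood at 2.05 and 3.78, a difference of 0.85, and Pip at 0.692 and 0.353.

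The counts in the library means changed without cluster 8. Then 1 gene was higher (Prol1, at 0.407 in the mock and 0.928 in the ligated library) and 1 lower (Wfdc12, at 0.726 and 0.0257), beside 6.35% and 6.03% of all genes. Wfdc12 is among the genes picked for low ligated values. Dcpp2, at 0.212 in the mock and 0.0355 in the ligated library, and Dcpp3, at 0.362 and 0.0587, still had differences of -1.20 and -1.54, but their values were under the minimum of 0.5 and were not counted. Mucl2 was then at 4.22 and 3.70. In the mock library cluster 8 held 81.4% of the summed level of Mucl2, 80.2% of Prol1 and 83.1% of Pip from 25 of 4199 cells.

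**Figure D4:**
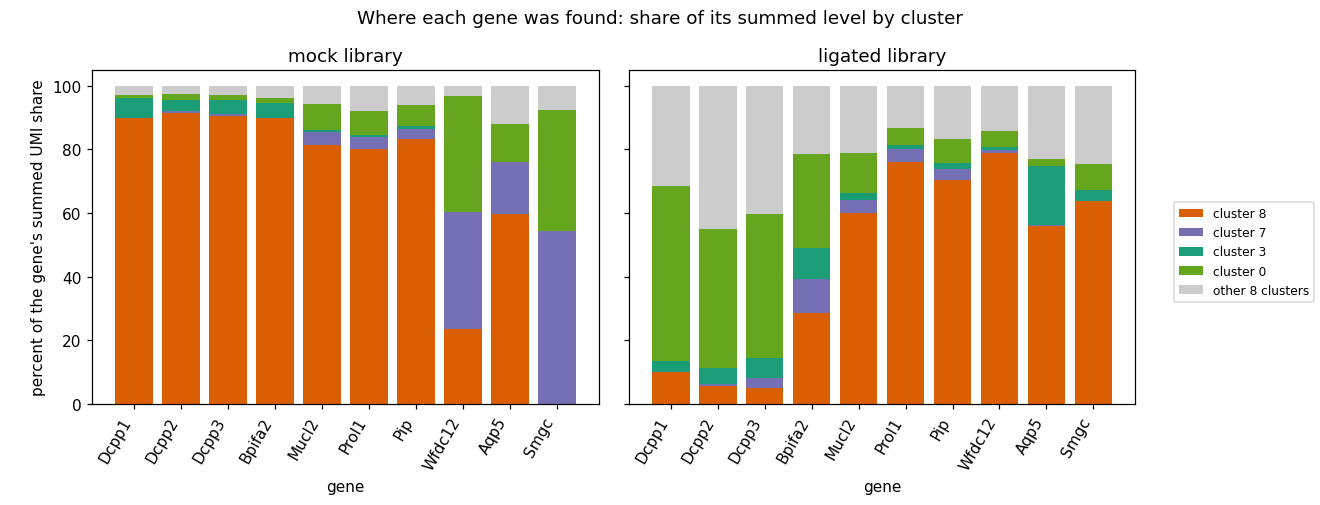
Percent of each gene's summed level in a library that lay in cluster 8, 7, 3, 0 and the other 8 clusters, as stacked bars from 0 to 100, mock library on the left and ligated on the right. Cluster 8 held 89.8% to 91.6% of the 3 Dcpp genes in the mock library and 5.07% to 10.0% in the ligated library, and Wfdc12 lay in clusters 7, 0 and 8 in the mock library but 79.0% in cluster 8 in the ligated library.

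Other genes of salivary secretion were read from 5 lists of 113 genes, of which 91 had a row. In the library means 23 reached 0.5, and 2 were higher in the ligated library (Wfdc2 and Aqp1) and 3 lower (Wfdc18, Klk1b9 and Fxyd2), beside 6.38% and 6.12% of all genes at or above 0.5. The median difference of the 23 was 0.08, beside -0.07 over all genes. With the mock mix of clusters in both libraries, only Wfdc18 stayed lower, and Klk1 and Krt7 joined Wfdc2 and Aqp1 as higher. The ductal-like cluster held 4.79% of mock and 2.44% of ligated cells. Within it Fxyd2 differed by -0.42 and Klk1b9 by -0.95, both short of the 2-fold rule. In the ductal-like cluster 38 reached 0.5, of which 15 were higher and 2 lower, beside 14.8% and 11.6% of all genes there. In cluster 8, 23 reached 0.5, of which 8 were higher and 7 lower, beside 69.5% and 5.59% of all genes there.

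Of 13 other acinar secreted products with a row, only Car6, which encodes the secreted carbonic anhydrase of saliva, reached 0.5 in the library means, at 0.808 in the mock and 0.852 in the ligated library. In cluster 8 it was at 105 and 24.7, and relative to Mucl2 at 0.0341 and 0.106. The WAP-domain family differed by cluster. Wfdc18 was at 152 in mock and 1.97 in ligated cluster 8, and at 2.22 and 7.55 in cluster 7, the opposite order to Wfdc12 in that cluster. Wfdc2 was at 3.81 and 18.4 in cluster 7. Among 19 genes of fluid secretion with a row, Atp1b1, a subunit of the sodium pump, was at 4.62 and 19.0 in cluster 7, and Aqp1, a water channel of endothelium, had library means of 0.711 and 2.37. Among 19 transcription factors and genes of the secretory machinery was Hspa5, a chaperone of the endoplasmic reticulum. It was at 0.416 in mock and 4.72 in ligated cluster 8, with library means of 3.51 and 4.58. Of all genes at or above 0.5 in cluster 8, 69.5% were at least 2-fold higher in the ligated library. Spdef, a factor of mucous cells, was at 0.565 in mock and 0.00464 in ligated cluster 8. A single UMI in 1 mock cell can give 0.511 there, so the Spdef difference carries little weight. Of 33 ductal genes, 26 reached 0.5 in cluster 7, and 10 of these were higher and 2 lower, beside the same 14.8% and 11.6% of all genes.

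The nearest genes by Pearson's r of log2(value + 0.1) over the 24 cluster and library columns are given as a description, since the columns share 2 libraries and cluster 8 of the mock library carries much of the range. Among 7967 other genes, the nearest of Dcpp1 were Dcpp2 (0.981), Bpifa2 (0.977) and Dcpp3 (0.973), and Dcpp2 and Dcpp3 were each other's nearest (0.989). Those of Bpifa2 were Gria4 (0.986), Frmd7 (0.984) and Dcpp1 (0.977), where Gria4 and Frmd7 were each at 0.511 in mock cluster 8 and at 0 in ligated cluster 8. That value equals 1 UMI in 1 of the 25 mock cells, at the lowest recovered total of 783 UMIs. A single UMI there reaches the minimum of 0.5, so the ranks of Gria4 and Frmd7 carry little weight. Prol1 was nearest to the secretoglobin genes Scgb2b26 (0.975), Scgb2b27 (0.971) and Scgb1b27 (0.967). Mucl2 and Pip were each other's nearest (0.982), followed by Scgb2b27 and Scgb1b27 for both. Aqp5 was nearest to Pip (0.960), then to A630073D07Rik (0.948) and Scgb2b27 (0.944). Wfdc12 was nearest to Mucl2 (0.874), Spdef (0.863) and Pcsk1 (0.859). In mock cluster 8 Pcsk1 had the same 0.511, and Spdef was little above it at 0.565. Smgc was below the minimum for this ranking.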

How the data were processed

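The submitters' processing notes name Cell Ranger 6.0.1, Seurat and mm10, and the roles and settings are not given in the sources used here. The authors deposited 4 tables of cluster means, with 12 clusters of all cells and 5 of a subset, each with both libraries together and split by library. From the values, each deposited entry is the mean, over the cells of a cluster, of UMIs scaled to 10000 per cell (every column sums to 10000), which is neither a count nor CPM, so no count model was fitted. In the split files, 21 gene names had turned into dates and were restored from the order of the rows, and 0 value columns were without a sample. A symbol was listed above 0 only in the ligated library for 3150 genes and only in the mock library for 684. Whether both libraries were counted with the same annotation is not given in the sources used here, so a value of 0 in 1 library may be a gene that was not counted there.

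Cell numbers were recovered as whole numbers whose weights turn the split means into the joint mean (largest residual 9.2e-08). The weights fix only a fraction. Its multiple was chosen so that many values equalled 1 UMI in 1 cell with a whole UMI total. UMI totals of single cells came from at least 2 genes seen as 1 UMI in 1 cell. They are a biased sample, and in a few small clusters 1 total more than the cells was found. Differences are log2((ligated + 0.1)/(mock + 0.1)), which understates low genes. A gene counted as higher or lower if its larger value reached 0.5 and the 2 libraries differed by 1 or more on the log2 scale, in clusters with 50 or more cells per library. With 1 library per group no test was made. Doublets and free RNA were not removed here. Simulated cells, set up after the fibroblast-like and ductal-like clusters, were used to test the fraction of cells given by the weights and the 2-fold rule. The choice of the multiple and the recovery of UMI totals were not tested in this way. Python 3.11.15, numpy 2.4.6, pandas 2.3.3 and Biopython 1.88 were used. Genes are named where they are among the 10, belong to a list or marker list, or are among the 3 nearest of a gene by correlation. The genes, lists and thresholds were chosen with earlier results of these data known.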

Additional observations from a re-analysis of the deposited data

Results flagged for a closer look

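Prol1 was past the 2-fold size in opposite directions in different clusters. Its difference was 1.20 in cluster 0, 1.23 in cluster 4, 2.49 in cluster 6, 1.89 in cluster 7 and 1.19 in cluster 9, all higher in the ligated library, and -1.15 in cluster 8, where it was lower. In clusters 0, 4, 6 and 9 the ligated values were only 0.607% to 1.64% of that in cluster 8. Such low values, and the ligated value of cluster 7 at 5.05% of that in cluster 8, are not read as expression in those cells. Each value compares 1 library with 1 library, clusters 8 and 9 held 25 and 17 mock cells, and the difference between clusters was not tested.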

How the results depend on the processing

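No paired analysis was possible because each group has 1 library and the result comes from no test. The counts below are of genes or pairs at least 2-fold apart. For pairs in clusters of all cells (4 higher, 10 lower), the higher count was 2 with a pseudocount of 1, 2 with a minimum of 2 for the higher value and 1 when the difference had to reach 2. The lower count was 6 with a pseudocount of 1, 17 with no minimum, 5 with that minimum of 2, 20 with all 12 clusters and 4 in the subset. In the library means (0 higher, 5 lower), the lower count was 3 with a minimum of 2, 8 with equal weight for every cluster, 1 without cluster 8 and 0 without clusters 7 and 8, and the higher count was 1 under both of the latter. For other secretory genes (2 higher, 3 lower), the higher count was 0 with a pseudocount of 1, 1 with a minimum of 2, 0 when the difference had to reach 2, 4 with the mock mix of clusters in both libraries and 6 with equal weight. The lower count was 1, 1 and 0 under the first 3 of these, 5 with no minimum and 1 with the mock mix. Where the setting itself removes genes, cells or clusters the change follows from that, and elsewhere the cause was not tested.

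Of 521 recomputed differences of single genes, 402 moved by less than 1.5-fold and 119 by more, and no called difference changed sign. A pseudocount of 0.01 moved 55 and one of 1 moved 38, and rescaling without the secretory and ductal genes moved 16. The sum of Smgc and Muc19 had library means of 0.00858 (ligated) and 0.0265 (mock). Muc19 was above 0 only in the ligated library, and whether it was counted in the mock library is not known. The 25 mock cells of cluster 8 limit every value there.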

Other observations

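The secretoglobins nearest to Prol1 were read in cluster 8 after that ranking was seen. Scgb1b27 was at 903 in the mock and 129 in the ligated library, which is 0.293 and 0.553 of Mucl2. Scgb2b27 was at 434 and 47.7, or 0.141 and 0.205 of Mucl2, and Scgb2b26 at 114 and 23.3, or 0.0371 and 0.100. Relative to Mucl2 all 3 were higher in the ligated library, as Prol1 and Car6 were, while Wfdc18 went from 0.0491 in the mock to 0.00848 in the ligated library. All 3 secretoglobins were above 0 in 12 of 12 clusters of both libraries.

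The Smgc and Aqp5 values of mock cluster 7 were traced to single cells. The summed Smgc of that cluster was 0.602% of the UMIs of 1 cell and equalled that of mock subset cluster 0 within 1e-08. The recovered total that gave a whole number in both tables was 2158 UMIs, with 13 UMIs of Smgc. The Aqp5 sum of 0.0927% was also equal in both, and gave 2 UMIs of the same total. The Pdgfrb value of mock cluster 7 gave 1 UMI of that total. In cluster 7 alone a total of 1328, with 8 UMIs of Smgc, also gave a whole number, but that total was not among those recovered for the subset cluster.

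Wfdc12 in the mock subset was found outside the fibroblast-like cells. Its sum in mock subset cluster 0 was 11.8% of the UMIs of 1 cell, while that in mock cluster 3 of all cells was 0.0599%, so at least 99.5% of it came from cells that other clusters hold among all cells. In the ligated library the same minimum for subset cluster 0 was 61.6% for Mucl2, 53.6% for Prol1 and 67.3% for Pip.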
